A study of Homo sapiens with 16 samples.

Results

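The late response of SUM-225 cells to a HER2 kinase inhibitor was examined in 8 of the 16 arrays of a time course. SUM-225 is a human breast cancer line that carries extra copies of the HER2 gene and makes large amounts of the receptor, and CP724,714 blocks its kinase domain. Parallel cultures received 1 µM CP724,714, RNA was taken every 3 h from 0 to 45 h, and each time point was hybridised to 1 Illumina bead array. The members were chosen by the time in their labels alone: the 4 arrays at 24, 27, 30 and 33 h formed the first window, and the 4 arrays at 36, 39, 42 and 45 h formed the second. All 8 cultures were of the same line, and all were in the inhibitor from 0 h. The labels give a serum-containing medium with insulin and hydrocortisone, whereas the study's methods name a serum-free medium without insulin for this line, and which one was used is not settled. The windows therefore differ in hours of exposure and not in treatment. Time in CP724,714 and time in culture cannot be told apart, since no untreated course was analysed here.

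The question was what still changed on the second day in the inhibitor. HER2 drives cells through the cell cycle by way of the RAS-ERK and PI3K-AKT pathways, and cells deprived of such a signal stop entering S phase. Genes for DNA replication are transcribed under E2F factors around the G1/S transition, when RB no longer restrains them. Genes for mitosis are transcribed later, in G2, and their promoters often carry CCAAT boxes, bound by NF-Y, and a cell cycle homology region (CHR), bound by the DREAM and MuvB complexes. When cells leave the cycle both groups are switched off, and so the transcripts of a population report which phases its cells still pass through. In RNA of whole cultures, fewer cells in a phase and less RNA of a gene per cell cannot be told apart.

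Each window held 4 single time points, so the spread within it contained both the differences between cultures and any change within 9 h, and p-values measure that spread. The 8 arrays had a median signal between 268 and 384 and between 14110 and 15073 probes with a detection p-value under 0.05. Values are given as log2 signal after background correction and quantile normalization, and genes are represented by their brightest probe. Of the genes that define the labelled line, ERBB2 and a luminal keratin were looked at here, and their signals were high. ERBB2, which encodes HER2, had a log2 signal of 16.02 to 16.13 on the 8 arrays, near the top of the scale, and the luminal keratin KRT19 had 16.09 to 16.13. Of the markers of other cell types, 3 of 12 fibroblast, 5 of 12 immune and 4 of 8 endothelial genes were detected often enough to be tested, and none of these passed the test in limma (1 at an unadjusted p under 0.05). That test compares the windows and does not show which cells are present. Of the basal or myoepithelial markers 6 of 10 were tested, among them KRT5 with a mean of 12.30 at 24 to 33 h. Of 15 control genes tested, 0 rose and 0 fell in limma (4 at an unadjusted p under 0.05), with a median difference of -0.05. The labels name no batch or slide. The typical distance of an array from its predecessor, as the root-mean-square over probes, was 0.27 to 0.29 log2 units from 24 to 33 h and 0.33 at 36 h, where the windows meet. It was 0.36 at 24 h and 0.42 at 12 h, where the earlier sets of 4 arrays meet. A set of 4 cultures or arrays handled together cannot be told apart from the window, nor from a change between 9 and 12 h.

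Of 16110 probes tested, 260 (1.61%) rose and 520 (3.23%) fell from 24 to 33 h to 36 to 45 h in limma at an adjusted p under 0.05. By gene, 212 of 13023 (1.63%) rose and 452 (3.47%) fell, and 12359 did not pass the test. The falls were the larger changes. The median difference was -0.74 log2 units over the falling genes and 0.42 over the rising ones, and 155 falling but only 2 rising genes differed by more than 1 log2 unit, which is 2-fold. The median over all genes was 0.02. For 436 of the falling and 207 of the rising genes the windows did not overlap, against 12.6% of all genes tested. The 45 h array stood apart from the others. Without it, 364 genes (2.8%) rose and 564 (4.33%) fell, and of the 780 probes called with it 761 were called in the same direction without it and 0 in the opposite one. The number of rising probes was the less stable of the counts: it was 437 without the 45 h array and 91 without the 24 h array. Falling probes were 66.7% of the calls, and 78.8% with median scaling in place of quantile normalization (142 rose and 527 fell).

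Mitosis genes fell together and by large amounts. The 44 mitosis genes tested all had a lower mean at 36 to 45 h, and 42 of them fell, against 3.47% of all genes. Their median difference was -1.80 log2 units, and it was -1.81 without 45 h. The falling members covered the kinesin motors of the spindle, the B-type cyclins and their activating phosphatases, the spindle checkpoint, the chromosomal passenger complex and cytokinesis. MAD2L1, a checkpoint protein detected on 3 of the 8 arrays, differed by -0.76 (adjusted p = 0.37), and ESPL1, the separase that cuts cohesin, by -0.15 (adjusted p = 0.46).

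CDC20, which activates the anaphase-promoting complex, had log2 signals of 14.11, 13.95, 13.73 and 13.61 at 24, 27, 30 and 33 h and of 11.96, 11.77, 11.78 and 11.97 at 36, 39, 42 and 45 h. Its mean was 13.85 ± 0.22 (SD, n = 4) in the first window and 11.87 ± 0.11 in the second, a difference of -1.98 ± 0.10 (SE) or 3.94-fold (limma, adjusted p = 7.71e-07). The 4 later arrays lay close together and below every earlier one. CCNB1, the cyclin B1 subunit of the mitotic kinase, was at 10.79, 10.55, 10.44 and 9.995 in the first window and at 8.66, 8.41, 8.43 and 8.12 in the second. It differed by -2.04 ± 0.16 (adjusted p = 6.61e-06). CDC2 in the file, which RefSeq lists as an older name of both its partner kinase CDK1 and the polymerase subunit POLD1, differed by -1.48 ± 0.12 (adjusted p = 7.45e-06). FOXM1, a transcription factor that drives the expression of mitotic genes, was at 10.14, 9.68, 9.55 and 9.18 and then at 8.02, 8.14, 7.90 and 7.31, a difference of -1.80 ± 0.21 (adjusted p = 0.000161). The windows of CDC20, CCNB1 and FOXM1 did not overlap.

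Other large falls were of genes outside the list. KIF18A, a kinesin that aligns chromosomes at the metaphase plate, had the largest difference of the genes named by rule. It was at 9.05, 9.17, 8.69 and 8.50 and then at 6.63, 6.16, 6.78 and 5.88, a difference of -2.49 ± 0.21 (adjusted p = 1.13e-05). The later signals were near the background, with detection on 3 of the 4 arrays. PIMREG (FAM64A in the file), a mitotic protein, was at 10.14, 9.83, 9.63 and 9.39 and then at 7.19, 7.39, 7.41 and 7.11, which is 5.55-fold lower (adjusted p = 1.35e-06). KIF20A, a listed kinesin of the central spindle, was at 12.01, 11.71, 11.47 and 11.19 and then at 9.51, 9.19, 9.18 and 8.78, which is 5.38-fold lower (adjusted p = 3.97e-06). All 3 were lower at 33 h than at 24 h and lower again at 36 h, with separate windows. Of the list, CDC25C, the phosphatase that activates CDK1, fell by 2.26 ± 0.16 on the log2 scale, and the other 2 tested probes of the gene differed by -1.96 and -2.34. BUB1, a spindle checkpoint kinase, fell by 2.20, the spindle pole protein ASPM by 2.11 and DLGAP5 (DLG7 in the file), which stabilises spindle microtubules, by 2.10. Outside the list, TROAP, a spindle-associated protein, fell by 2.18 and DEPDC1B fell by 2.28. The helicase PIF1 fell by 2.18 and was detected on 1 of the 4 later arrays, so the size of its fall is uncertain. Without background correction the differences of KIF18A, DEPDC1B and PIF1, which are dim, were -1.32, -1.38 and -0.93, and all still passed. PTTG1, the securin that holds separase inactive, fell by 1.94, and its near-identical copy PTTG3P fell by 2.10. Both probes may bind either transcript, so the copies are uncertain. The mitotic kinesin CENPE was detected on all 4 earlier and 0 of the 4 later arrays and was at least 3.15-fold lower. NMU, which encodes the neuropeptide neuromedin U and is also outside the list, was at 11.26, 11.34, 10.99 and 10.70 and then at 9.05, 9.14, 8.88 and 8.53 (difference -2.18 ± 0.15, adjusted p = 3.97e-06).

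**Figure D1:**
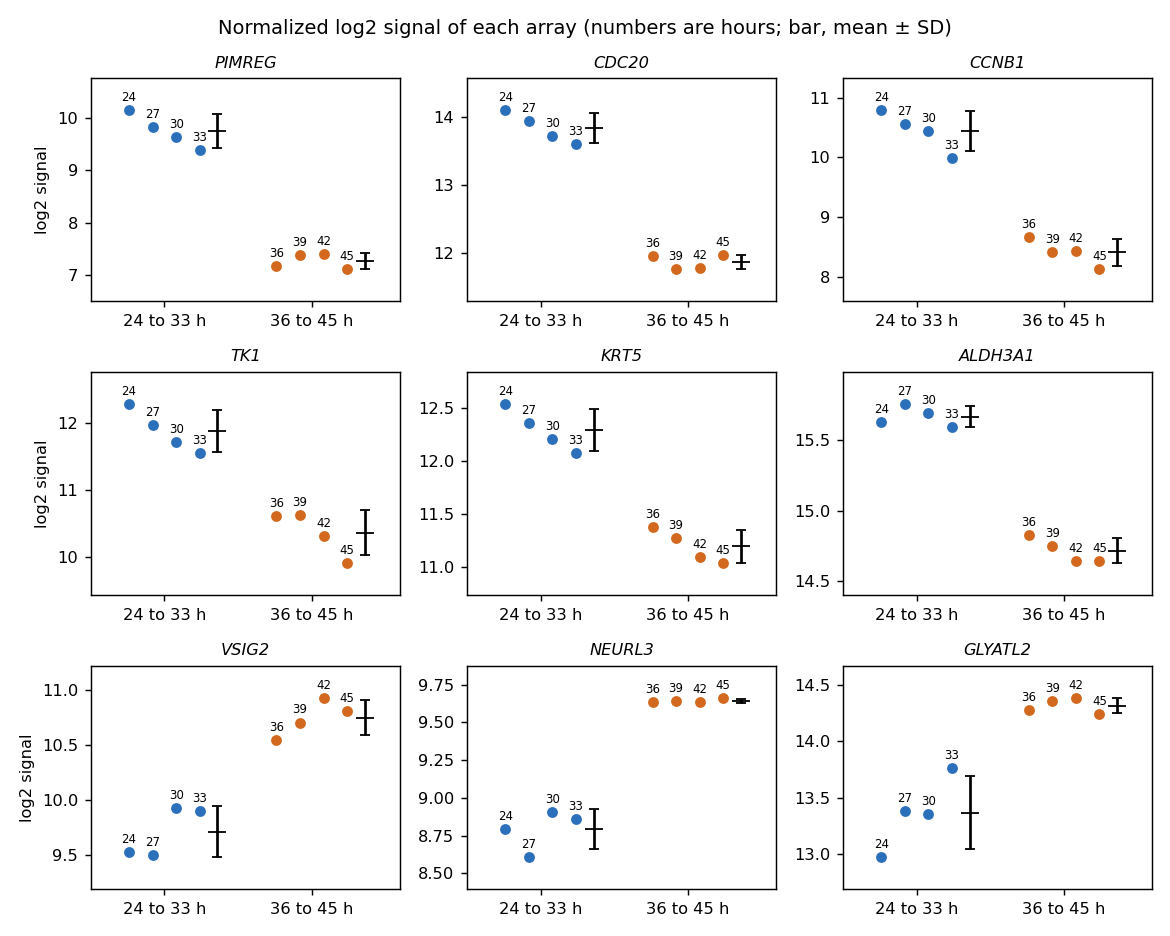
Normalized log2 signal of 9 genes on each of the 8 arrays, 24 to 33 h in blue and 36 to 45 h in orange, with the hour beside each point and the mean ± SD (n = 4) as a bar. The vertical axes differ and do not start at 0. In every panel the 2 windows are separate, with PIMREG, CDC20, CCNB1, TK1, KRT5 and ALDH3A1 lower at 36 to 45 h and VSIG2, NEURL3 and GLYATL2 higher.

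The promoters of the mitosis list, the 42 falling and the other 2 members together, often held the motifs named above for genes of mitosis. The shares describe the list and are no test of its fall. RefSeq promoter windows (GRCh38.p14, 250 bases before to 50 after each start) were given for 37 of the 44 genes, with 46 starts. The CHR motif TTTGAA was present on either strand in 60.9% of these promoters, against 11.01% of the promoters of all genes tested and 15.2% of all promoters. A CCAAT box was present in 78.3% against 35.3%, and both motifs together in 52.2% against 4.31%. Over all falling genes the CHR motif was in 23.5% of promoters, and over the rising genes in 10.5%. The E2F motifs TTTCCCGC, TTTGGCGC and TTTCGCGC were in 4.35% of the mitosis promoters but in 47.6% of the 21 promoters of the origin licensing genes, against 3.88% for all genes tested. Matches were counted on both strands and may overlap, and a match is not a bound site. The 250 bases before the start are printed for 4 mitosis genes, as examples of the CHR and CCAAT arrangement, and for 2 licensing genes that fell, as examples of E2F motifs without a CHR. Capitals mark the CHR, CCAAT and E2F motifs or their reverse complements, and the gene's own strand is shown. Of the 4 starts of CDC25C the one with a CHR is shown.
CCNB2 (GRCh38.p14 chr15:59104896-59105145, plus strand): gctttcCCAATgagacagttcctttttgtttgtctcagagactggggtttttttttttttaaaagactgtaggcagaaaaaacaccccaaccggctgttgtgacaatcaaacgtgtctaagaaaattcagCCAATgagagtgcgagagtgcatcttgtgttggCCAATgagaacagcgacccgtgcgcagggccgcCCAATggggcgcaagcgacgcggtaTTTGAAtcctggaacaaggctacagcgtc
CDC20 (GRCh38.p14 chr1:43358731-43358980, plus strand): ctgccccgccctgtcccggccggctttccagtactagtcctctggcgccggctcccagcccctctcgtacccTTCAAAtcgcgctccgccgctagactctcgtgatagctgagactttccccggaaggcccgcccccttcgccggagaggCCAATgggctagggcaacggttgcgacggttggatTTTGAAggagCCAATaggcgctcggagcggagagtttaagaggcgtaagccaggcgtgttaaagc
CDC25C (GRCh38.p14 chr5:138331805-138332054, minus strand): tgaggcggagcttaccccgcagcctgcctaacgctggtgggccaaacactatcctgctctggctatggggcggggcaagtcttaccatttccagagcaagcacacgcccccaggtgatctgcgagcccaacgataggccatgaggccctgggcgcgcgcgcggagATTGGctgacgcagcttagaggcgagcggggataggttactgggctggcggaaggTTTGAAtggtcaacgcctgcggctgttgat
TOP2A (GRCh38.p14 chr17:40417897-40418146, minus strand): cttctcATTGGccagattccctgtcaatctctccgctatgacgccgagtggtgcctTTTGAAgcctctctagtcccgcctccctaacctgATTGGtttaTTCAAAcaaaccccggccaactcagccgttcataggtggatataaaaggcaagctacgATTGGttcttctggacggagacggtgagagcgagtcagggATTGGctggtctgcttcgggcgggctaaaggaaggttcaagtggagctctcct
CDT1 (GRCh38.p14 chr16:88803539-88803788, plus strand): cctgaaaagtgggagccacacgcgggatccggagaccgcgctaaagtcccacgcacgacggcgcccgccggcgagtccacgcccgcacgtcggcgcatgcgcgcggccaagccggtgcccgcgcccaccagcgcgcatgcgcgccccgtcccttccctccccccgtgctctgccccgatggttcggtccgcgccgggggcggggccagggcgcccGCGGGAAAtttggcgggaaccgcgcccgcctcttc
GINS2 (GRCh38.p14 chr16:85688955-85689204, minus strand): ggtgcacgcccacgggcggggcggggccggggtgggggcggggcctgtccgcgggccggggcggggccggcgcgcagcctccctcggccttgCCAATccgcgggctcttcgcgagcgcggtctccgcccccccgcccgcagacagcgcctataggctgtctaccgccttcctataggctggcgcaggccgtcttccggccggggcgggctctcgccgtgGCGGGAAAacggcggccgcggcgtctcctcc
CCNB2 encodes cyclin B2, TOP2A the topoisomerase that untangles sister chromosomes, CDT1 the factor that loads the MCM helicase onto origins and GINS2 a subunit of the active helicase. In CCNB2, CDC20 and CDC25C a CHR lies in the part nearest the start, with a CCAAT box upstream of it. These 3 genes differed between the windows by -1.89, -1.98 and -2.26, and TOP2A by -2.02. CCNB1 had 2 CCAAT boxes and no CHR in the same stretch, and differed by -2.04. GINS2 (Pfs2 in the file) differed by -0.73.

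The largest part of the mitosis fall lay between 33 and 36 h. Relative to each gene's own mean at 24 to 33 h, the median of the list took the values 0.32, 0.15, -0.14 and -0.33 in the first window. From 36 h on, the 4 medians were -1.61, -1.78, -1.85 and -1.96. Most of the difference lay in one interval of 3 h, with a slower decline on both sides of it. Of the 44 genes, 43 were lower at 36 h than at 33 h and 33 were lower by more than 1 log2 unit, which held for 0.968% of all genes.

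**Figure D2:**
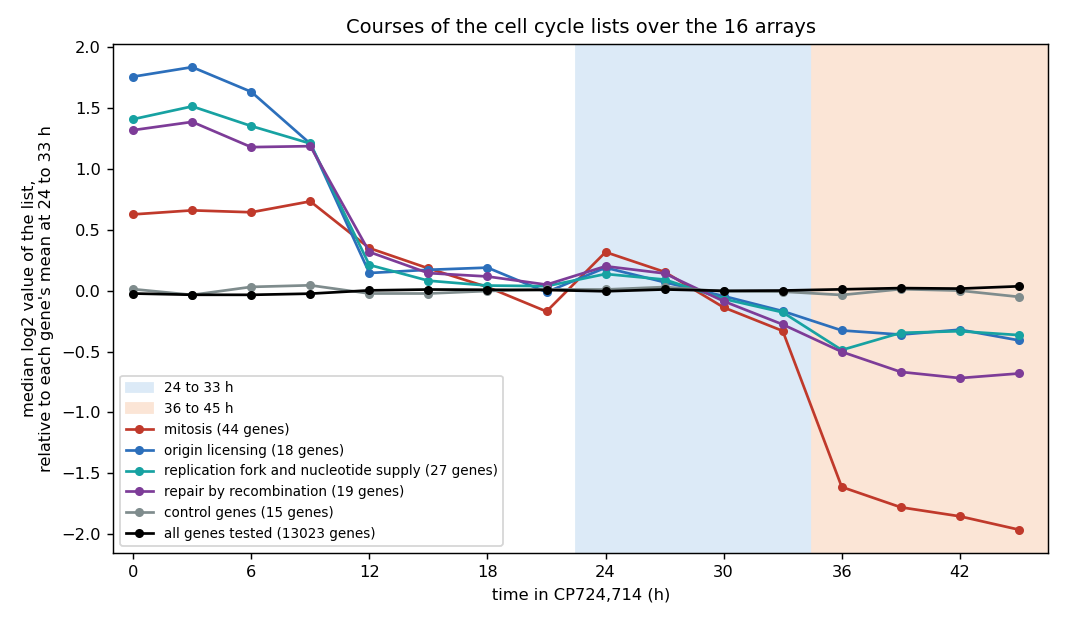
Median log2 value of 4 cell cycle lists, the control genes and all genes tested at each of the 16 time points, relative to each gene's mean at 24 to 33 h, with the windows shaded. The mitosis median drops from -0.33 at 33 h to -1.61 at 36 h, while the replication and repair lists had their main drop between 9 and 12 h. That interval is also a boundary between sets of 4 arrays, and the part of such a set in the drop was not tested. The mitosis median also rises from -0.17 at 21 h to 0.32 at 24 h.

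A step between the windows was estimated beside a common straight line in hours, so that a gene falling steadily through all 8 arrays would show a slope and no step. In this fit 39 genes (0.299%) fell in the step and 0 rose. By probe the counts were 43 and 0 in limma, with 869 probes at an unadjusted p under 0.05. Of the 39 genes, 20 were in the mitosis list, and 41 of the 43 probes were also called in the plain difference of windows. The step median of the mitosis list was -1.04 and its median slope -0.68 per 12 h, against 0.00 and 0.01 over all genes. The step and the slope are estimated from the same arrays and trade off against each other, and single arrays carried much of the test: 0 probes were called without the 36 h array, and 0 without an intensity trend in the variance prior.

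The largest steps were those of PIMREG (-1.94 ± 0.26, adjusted p = 0.0087), CDC20 (-1.65 ± 0.17, adjusted p = 0.00193), PTTG3P (-1.55 ± 0.14), CDC25C (-1.53 ± 0.24) and PTTG1 (-1.49 ± 0.18). CCNB2 and UBE2C, which encodes the ubiquitin-conjugating enzyme of the anaphase-promoting complex, stepped by -1.36 and -1.29. Outside the list, further genes of cell division were among the 39: CEP55 and RACGAP1 of cytokinesis, CKS2 and CDKN3, which bind cyclin-dependent kinases, and OIP5 and KNSTRN of the centromere and kinetochore. A few had other known roles. MT2A, a metallothionein that binds zinc and copper, was at 15.66, 15.54, 15.60 and 15.32 and then at 14.39, 14.40, 14.24 and 14.24, with a step of -0.89 ± 0.11 (adjusted p = 0.00427). ALDH3A1, an aldehyde dehydrogenase, was at 15.63, 15.76, 15.69 and 15.59 and then at 14.82, 14.75, 14.64 and 14.64, with a step of -0.79 ± 0.11 (adjusted p = 0.00783). The windows of both were separate, with MT2A 2.31-fold and ALDH3A1 1.94-fold lower in the second. At 21 h MT2A had been at 15.14 and ALDH3A1 at 14.86, below all 4 arrays of the first window. Among the other metallothioneins, looked up after MT2A was seen, MT1A fell by 0.72 and MT1G, MT1F, MT1H and MT1IP also fell, while MT1E and MT1X did not pass the test. The metallothioneins are close paralogs whose probes can share transcripts.

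The preceding interval gave a different picture for the same genes. From 12 to 21 h to 24 to 33 h, a comparison that shares the 24 to 33 h arrays, 934 genes (7.17%) fell and 1131 (8.68%) rose, and of the 44 mitosis genes 1 fell and 0 rose, with a median of -0.15. Of the 452 genes that fell between the late windows, 65 had risen in this interval, 68 had fallen and 319 had passed in neither direction. The difference between the 2 changes was tested in one fit of the 16 arrays. The late change was below the preceding one for 238 genes (1.83%) and above it for 65 (0.499%). Of the mitosis genes 37 were among the 238. For CCNB2 the late change of -1.89 followed one of -0.19, and the difference had an adjusted p of 6.58e-05. For PLK1, the mitotic kinase, -1.31 followed -0.34 and the difference did not pass (adjusted p = 0.0708).

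The licensing, replication, recombination and G1/S lists had their larger drop earlier in the course, while the histone median was -0.59 at 0 h and -0.02 at 24 h. Relative to 24 to 33 h, the median of the origin licensing genes was 1.76 at 0 h, 1.21 at 9 h and 0.15 at 12 h, and that of the mitosis genes was 0.63, 0.73 and 0.35. In the late comparison 7 of 18 licensing genes, 13 of 27 genes of the replication fork and nucleotide supply, 11 of 19 genes of recombination repair, 2 of 18 genes of the G1/S transition and 3 of 13 histone genes fell, and 0 of any of them rose, against 3.47% falling and 1.63% rising over all genes. Their medians were -0.29, -0.34, -0.61, -0.14 and -0.15. None of these genes passed in the step, which does not show that a step was absent. In the same order, the step medians of the lists were -0.17, -0.30, -0.25, -0.01 and -0.05, against 0.00 over all genes. Of the 452 falling genes, 78 were in these 5 lists or the mitosis list, which together held 1.07% of the genes tested and 17.3% of the falling ones.

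TK1, thymidine kinase of the nucleotide salvage pathway, was at 12.28, 11.97, 11.71 and 11.55 and then at 10.61, 10.62, 10.31 and 9.90, a difference of -1.52 ± 0.17 (adjusted p = 0.000141). TYMS, thymidylate synthase, was at 11.06, 10.78, 10.56 and 10.12 and then at 9.55, 9.24, 9.26 and 9.08, a difference of -1.35 ± 0.17 (adjusted p = 0.000329). Both declined within the first window and were lowest at 45 h, but TK1 did not fall from 36 to 39 h nor TYMS from 39 to 42 h. From 33 to 36 h TK1 changed by -0.94. Neither had a step past the threshold (-0.54 for TK1, limma, adjusted p = 0.592), which does not show that a step was absent. CDT1 was at 11.09, 11.05, 10.80 and 10.52 and then at 9.71, 9.59, 9.54 and 9.92 (difference -1.17 ± 0.13, adjusted p = 9.82e-05). All 3 were lower at 21 h (11.29, 9.88 and 10.05) than at 24 h. ORC1 (ORC1L in the file), the largest subunit of the origin recognition complex, was detected on all 4 earlier and 0 of the 4 later arrays and was at least 1.93-fold lower (adjusted p = 0.00398). E2F8, a repressor among the E2F factors, was likewise detected on 4 and 0 arrays and was at least 1.61-fold lower. RAD51AP1, a partner of the recombinase, fell by 1.26, the nuclease EXO1 by 1.03 and the histone H2BC21 (HIST2H2BE in the file) by 0.70. TK1 and H2BC21 had risen in the preceding interval, by 0.46 and 0.62. MCM6, a helicase subunit, differed by -0.10 (adjusted p = 0.632) and RRM2, the small subunit of ribonucleotide reductase, by -0.72 (adjusted p = 0.128).

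**Figure D3:**
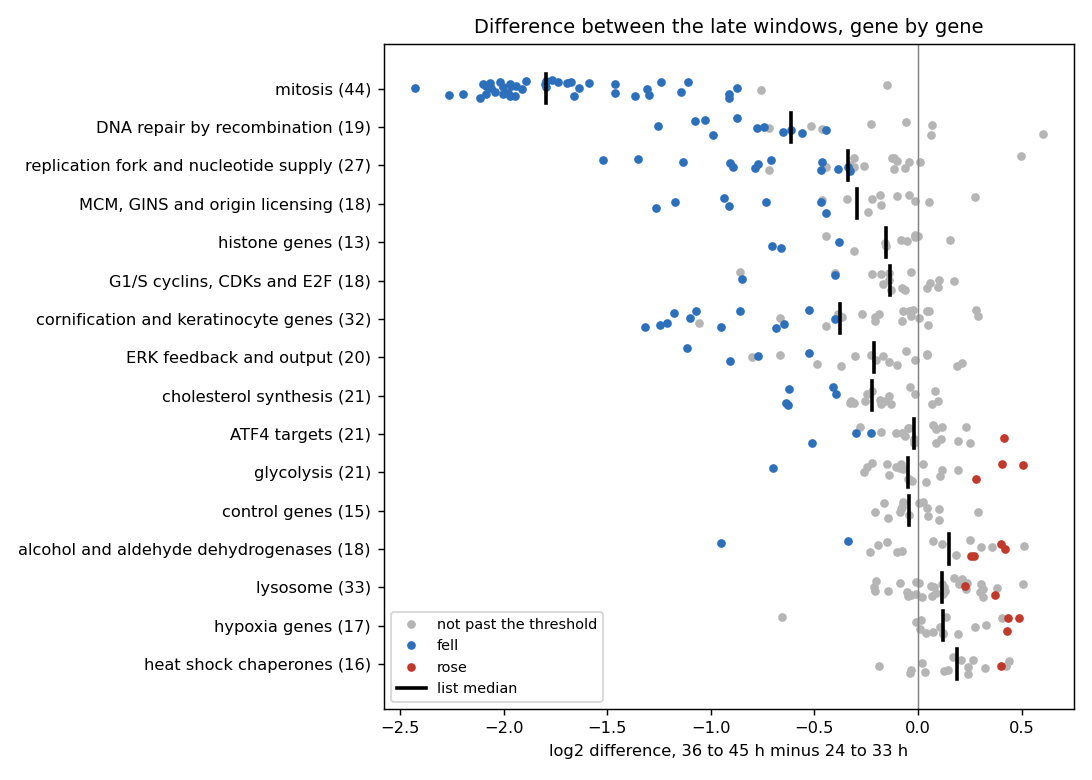
Log2 difference between the windows (36 to 45 h minus 24 to 33 h) for each tested member of 16 gene lists, with the number of members in parentheses, calls in colour and the list median as a black bar. The mitosis members lie apart on the left with a median of -1.80, and the control genes lie around 0 with none called.

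Keratinocyte genes were the other group with many falls. Of 32 genes of cornification and squamous keratins 12 fell and 0 rose, against 3.47% and 1.63% of all genes. In the preceding interval 12 of the 32 had fallen and 7 had risen, against 7.17% and 8.68% of all genes. The late change was below the preceding one for 2 of them, against 1.83% of all genes. The median difference was -0.38, but -0.23 without 45 h, since the list median relative to 24 to 33 h was -0.28 at 42 h and -0.72 at 45 h. KRT6C (KRT6E in the file), a keratin of stressed epidermis whose copies KRT6A and KRT6B are near-identical, was at 11.83, 11.69, 11.22 and 11.10 and then at 10.39, 10.38, 10.06 and 9.75 (difference -1.32 ± 0.17, adjusted p = 0.000505). KRT5, the basal keratin, was at 12.54, 12.36, 12.21 and 12.08 and then at 11.38, 11.27, 11.09 and 11.03 (difference -1.10 ± 0.11, adjusted p = 3.17e-05). Both declined from array to array across the 2 windows. In the preceding interval KRT6C had already fallen by 1.08 (limma, adjusted p = 6.12e-05), while KRT5 had not passed (0.14, adjusted p = 0.441). SPRR3, a small proline-rich protein of the cornified envelope, fell by 1.25. Of the basal or myoepithelial markers 6 of 10 were tested and 4 fell, KRT5, KRT17, ACTA2 and CDH3, while the defining marker TP63 was not detected often enough to be tested. Their summed signal was 15015 to 18717 in the first window and 9596 to 11870 in the second. Whether the share of cells with such a phenotype changed was not tested. Of 25 luminal genes tested, ELF3, an epithelial transcription factor, rose by 0.22, a call lost in 9 of 18 alternatives, and TFF3 and SPDEF fell, by 0.43 for TFF3.

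Signalling and metabolic lists had fewer calls, to be read against 1.63% of all genes rising and 3.47% falling. Of 20 genes of ERK feedback and output 4 fell and 0 rose, with a median of -0.22. In the preceding interval 11 of the 20 had fallen and 0 had risen, with a median of -0.41. Over all genes 7.17% had fallen and 8.68% had risen. The late change was below the preceding one for 0 of the 20, against 1.83% of all genes. ETV5, an ETS factor induced by ERK, was at 7.53, 7.82, 7.31 and 6.99 and then at 6.16, 6.26, 6.37 and 6.40 (difference -1.12 ± 0.18, adjusted p = 0.00269), while its other tested probe differed by 0.30 (adjusted p = 0.622). By its brightest probe ETV5 had already fallen by 0.85 in the preceding interval. EGR1, an immediate early factor, fell by 0.77. Of 21 immediate early genes, EGR1 and FOS fell and DUSP1, a phosphatase of MAP kinases, rose by 0.26, a call lost in 8 of 18 alternatives. Of 21 cholesterol synthesis genes 5 fell and 0 rose, with a median of -0.22. In the preceding interval 9 of these 21 genes had risen and 0 had fallen, against 8.68% and 7.17% of all genes. MVD had risen by 0.55 in that interval. The enzymes MVD and SQLE fell by 0.64 and 0.40 and INSIG1, which retains the SREBP complex in the endoplasmic reticulum, by 0.62. The cholesterol exporter ABCA1 rose by 0.69, a call lost in 7 of 18 alternatives, and that of MVD was lost in 6. In fatty acid synthesis the desaturase FADS1 fell by 0.57, after a rise of 0.45 in the preceding interval. The elongase ELOVL1 rose by 0.28, but passed in only 6 of 18 alternatives.

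Of 21 glycolysis genes 3 rose and 1 fell, against 1.63% and 3.47% of all genes. HK2, a hexokinase, was at 9.85, 9.91, 10.11 and 10.13 and then at 10.48, 10.49, 10.39 and 10.67 (difference 0.51 ± 0.09, adjusted p = 0.00659), PFKFB3, which makes the activator of phosphofructokinase, rose by 0.41 and the lactate exporter SLC16A3 by 0.28. LDHB, a lactate dehydrogenase subunit, fell by 0.70 (adjusted p = 0.000948), after a rise of 0.66 in the preceding interval. HK2 had also risen in that interval, by 0.47. Of 17 hypoxia genes 3 rose and 0 fell, the prolyl hydroxylase subunits P4HA1 (0.43) and P4HA2 (0.49) and NDRG1 (0.43). Of the ATF4 targets 1 rose and 3 fell, NUPR1 by 0.41 upward and the amino acid transporter SLC7A5 by 0.51 downward. In the preceding interval NUPR1 had risen by 0.70 and SLC7A5 had fallen by 1.11. AKR1B10, an aldo-keto reductase of the NRF2 list, fell by 0.94, and TAGLN, an actin-binding protein, by 1.34. TAGLN had risen by 1.84 in the preceding interval (limma, adjusted p = 2.71e-05), and was at 8.99 at 21 h and 11.88 at 24 h. Its mean of 9.89 at 36 to 45 h was above its mean of 9.38 at 12 to 21 h. The growth factor GDF15 fell by 0.48 and the chemokine CXCL8 (IL8 in the file) by 0.33, and both calls were lost in 9 of 18 alternatives. That of NUPR1 was lost in 7. CXCL8 had already fallen by 0.75 in the preceding interval.

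The rises were smaller than the falls, and 185 of the 212 rising genes were in none of the lists. DAPK2, a calmodulin-regulated kinase linked to cell death and autophagy, was at 6.12, 6.17, 6.87 and 6.39 and then at 7.22, 7.47, 7.96 and 7.70, the largest rise of the genes named by rule (1.20 ± 0.20, adjusted p = 0.00346). VSIG2, an immunoglobulin-domain membrane protein, was at 9.53, 9.50, 9.93 and 9.90 and then at 10.55, 10.70, 10.93 and 10.81 (difference 1.03 ± 0.12, adjusted p = 0.000168). NEURL3 (LINCR in the file), a ubiquitin ligase, was at 8.80, 8.61, 8.91 and 8.86 and then at 9.64, 9.64, 9.63 and 9.66 (difference 0.85 ± 0.09, adjusted p = 9.82e-05). The later values of NEURL3 were almost equal, whereas those of DAPK2 were more spread. Both DAPK2 and VSIG2 had also risen in the preceding interval, by 0.81 and 1.33. Of the 212 rising genes 83 had risen in that interval, 12 had fallen and 117 had passed in neither direction. Over all genes 8.68% had risen and 7.17% had fallen.

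GLYATL2, an enzyme that conjugates acyl groups to glycine, was at 12.97, 13.38, 13.36 and 13.76 and then at 14.28, 14.36, 14.38 and 14.24 (difference 0.95 ± 0.12), having been at 14.09 at 21 h. The organic cation transporter SLC22A4 rose by 0.80, the junction protein ESAM by 0.73, the membrane protein TMEM117 by 0.77, the peptide transporter SLC15A2 by 0.73 and the glutathione peroxidase GPX2 by 0.77. SEMA5A, a semaphorin, was detected on 0 of the 4 earlier and all 4 later arrays and was at least 1.57-fold higher. GHR, the growth hormone receptor, was detected on 2 and 4 arrays and rose by 0.82. CYP4Z2P rose by 0.86, and its probe may also bind the closely similar CYP4Z1. Without background correction the dim genes changed less, DAPK2 by 0.52 and GHR by 0.30. Of these 12 genes CYP4Z2P (adjusted p = 0.0308) and GPX2 (adjusted p = 0.0356) were nearest the threshold. GPX2, GHR, ESAM and SLC22A4 had also risen in the preceding interval, by 0.89, 0.75, 0.73 and 0.59. For none of the 12 did the late change differ from the preceding one past the threshold.

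By list, rises were few, and several calls depended on the processing. The CDK inhibitor CDKN2C rose by 0.43 (adjusted p = 0.0163), by its brightest probe, while its other 2 tested probes differed by -0.43 and 0.01. The clock factor NPAS2 rose by 0.59 and the tight junction claudin CLDN4 by 0.48. The kinase SGK1 rose by 0.42 and the pro-apoptotic BMF by 0.43, calls lost in 6 and 5 of 18 alternatives. The autophagy protein GABARAPL1 rose by 0.28, a call lost in 12 of 18 alternatives. CDKN2C, SGK1, BMF and GABARAPL1 had also risen in the preceding interval, by 0.40, 0.50, 0.52 and 0.29. Of 33 lysosome genes 2 rose, against 1.63% of all genes, and 8 rose without 45 h, against 2.8%. The lysosomal enzyme NAGLU rose by 0.37, a call also lost in 12 of 18. Of 18 alcohol and aldehyde dehydrogenases 4 rose and 2 fell, ADH1C by 0.42 upward with overlapping windows, a call lost in 10 of 18 alternatives. ADH1C had risen by 1.27 in the preceding interval, and its near-identical copies share probes with it.

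Of 16 heat shock chaperones only HSPA1A passed, at 14.95, 14.81, 14.78 and 14.99 and then at 15.30, 15.21, 15.29 and 15.33 (difference 0.40 ± 0.06, adjusted p = 0.000945), and 5 passed upward without 45 h. Over all genes 1.63% rose, and 2.8% rose without 45 h. The list median was 0.19 after a median of -0.53 in the preceding interval. For 4 members the late change was above the preceding one, against 0.499% of all genes. The lists of the unfolded protein response, ribosome biogenesis, the mitochondrial ribosome, oxidative phosphorylation, the proteasome, pyruvate dehydrogenase control and the ERBB2 amplicon had 0 genes past the threshold in either direction in limma (14 of 162 genes at an unadjusted p under 0.05, against 2785 of 16110 probes), with medians between -0.04 and 0.01. Without 45 h, 2 of 15 genes of the ERBB2 amplicon and ERBB family rose, against 2.8% of all genes. In the proteasome list 1 of 29 then fell, against 4.33%.

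The interferon-stimulated genes showed 0 calls among 31 in limma in the difference of windows (1 at an unadjusted p under 0.05) and a median of 0.02, but their courses were not flat. The list median relative to 24 to 33 h was -0.13 at 24 h and 0.21 at 33 h, then -0.12 at 36 h and 0.16 at 45 h. HERC5, a listed interferon-induced ligase of ISG15, was at 11.21, 11.54, 11.55 and 11.84 and then at 11.24, 11.39, 11.55 and 11.89. IFITM1, an interferon-induced membrane protein that the list did not hold, was at 13.27, 13.45, 13.44 and 13.69 and then at 13.01, 13.14, 13.25 and 13.55. Both were higher at the end of each window than at its start and lower at 36 h than at 33 h. They fell in the step, by 0.82 each (adjusted p = 0.0341 and 0.0149), while the window means differed by -0.02 (adjusted p = 0.967) and -0.22 (adjusted p = 0.32). Without 45 h the difference of IFITM1 was -0.33 (adjusted p = 0.0242). At 21 h they stood at 12.11 and 14.23, above each of the 8 later arrays, so a drop was also present from 21 to 24 h. The part of any set of 4 arrays in these values was not tested.

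VAMP8 and PHGDH, the genes followed in this cell line, changed modestly. VAMP8, a vesicle SNARE protein, was at 14.78, 14.83, 14.82 and 14.89 and then at 15.08, 15.10, 15.07 and 15.53 (difference 0.37 ± 0.09, adjusted p = 0.0314). The 45 h array lay far above the other 3, and without it the difference was 0.26 (adjusted p = 0.00131). The call was lost in 8 of 18 alternatives, with an adjusted p of up to 0.136, among them leaving out any 1 of the 24, 27, 30 and 33 h arrays. PHGDH, the first enzyme of serine synthesis, was at 15.55, 15.42, 15.42 and 15.18 and then at 14.90, 14.81, 14.81 and 15.19 (difference -0.46 ± 0.09, adjusted p = 0.0103). Its 45 h value lay just above the 33 h value, so the windows overlapped, and without 45 h the difference was -0.55. PHGDH had already fallen by 0.44 in the preceding interval (limma, adjusted p = 0.00106). Of 14 serine and one-carbon genes 2 fell and 0 rose, and of 26 SNARE and vesicle genes VAMP8 alone rose and 0 fell. Over all genes 3.47% fell and 1.63% rose.

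The 45 h array differed from the 42 h array by a root-mean-square of 0.42, with 515 probes more than 1 log2 unit apart, against 255 probes from 33 to 36 h. On the first principal component of the 8 arrays, which held 38.7% of the variance, the arrays from 24 to 42 h lay between -23.9 and 9.6 and the 45 h array at 40.0. At 45 h, 48 genes were more than 1 log2 unit above each of the 36, 39 and 42 h arrays and 93 were below each of them by that much, of which 0 were called as rising and 6 as falling between the windows. Over the mitosis list, the median difference of 45 h from the mean of 36 to 42 h was -0.25, against 0.02 over all genes, and 37 of the 44 genes were lower at 45 h than at 36 h. The list median relative to 24 to 33 h was -1.61 at 36 h and -1.96 at 45 h, against 0.01 and 0.04 over all genes.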

How the data were processed

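Total RNA of parallel SUM-225 cultures in 1 µM CP724,714 was hybridised to Illumina bead arrays, 1 array for each of 16 time points. The authors deposited a table of linear signal intensity per probe and array, neither background-corrected nor normalized, and the deposited detection p-value of each. The study's methods name the Ref8v2 array for time courses of other lines. For SUM-225 neither the array version nor the scanning software was given in the sources used here. The table gives no coordinates. Of 18631 symbols, 91% were found in RefSeq (GRCh38.p14), some through an older name belonging to 1 gene only, and the rest keep the file's name.

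From the intensities the authors deposited, log2 values were computed with neqc of limma 3.58.1 in R 4.3.3 (normexp from detection p-values, offset 16, quantile normalization over 16 arrays). Testing was limited to the 16110 of 24526 probes detected (p under 0.05) in 3 or more of the 16 hybridisations. Fold changes of weak probes are understated because of the offset. The difference between windows was fitted with lmFit and eBayes with an intensity trend over the 8 arrays, without 45 h over 7, and with a common line in hours (slope per 12 h) for the step. The late change minus the preceding one (the change from 12 to 21 h to 24 to 33 h) was fitted over 16 arrays in 4 sets, and the preceding change alone over its 8 arrays. Tests were two-sided, with Benjamini-Hochberg adjustment over the probes tested at 0.05. The number of arrays limits the precision. The fits were tested on simulated data. A fold for a gene detected on 0 of the 4 arrays of a window is a lower bound, computed against the lowest log2 signal among detected probes or the gene's own where higher.

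Genes named by rule were VAMP8 and PHGDH, 12 genes each way with a RefSeq symbol, ranked by size of change, that passed with and without 45 h with separate windows and detection on all 4 arrays of the brighter window, the 5 largest steps each way, and the extreme called members of each list. Other names were chosen after their values were seen. The members and lists were chosen with earlier results of these data known, so list counts and promoter shares are descriptions without a test. The alternatives tried were median scaling, cyclic loess, an offset of 50, signals left without background correction and floored at 16, the 8 arrays normalized alone, no filter, detection on all 8 arrays, a fit of 16 arrays, array weights, no intensity trend, all probes of a gene, and each array left out. Figures were drawn with matplotlib in Python.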

Additional observations from a re-analysis of the deposited data

Results flagged for a closer look

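In 6 of 132 groups of 4 arrays tested for a distant array (the 64 genes named by rule, the median signal and the number of detected probes, in each window) 1 array lay far from the other 3. Chance gives about 1 in 20. VAMP8 was at 15.53 at 45 h, MVD at 10.05 at 45 h and ABCA1 at 9.88 at 45 h, each far from its values at 36 to 42 h. PIF1 was at 8.41 at 24 h, above the other arrays of its window, and SGK1 at 13.32 at 42 h. The median signal of the 27 h array was 384 before normalization, above the others of its window. The change between the late windows was above the preceding change for 76 probes and below it for 275, tested as a difference of the 2 changes in limma.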

How the results depend on the processing

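The fall of the mitosis genes changed least: between 40 and 42 of 44 fell under each alternative, and 41 or 42 with each array left out. The probes falling between the windows numbered 334 to 645 with each array left out, and stayed within 1.5 times the reported 520 under the other alternatives. The rising probes numbered 142 with median scaling, 116 with all 16 arrays in 4 sets, 497 with array weights and 120 without an intensity trend, against 260, and 91 to 437 with each array left out (lowest without 24 h, highest without 45 h). Median scaling therefore moved the share of falling calls from 66.7% to 78.8%. Without 45 h, median scaling gave 274 rising probes, all 16 arrays 78 rising and 396 falling, and no intensity trend 107 and 367, against 437 and 645, and leaving out each array gave 173 to 508 and 432 to 751. The step called 43 falling probes, but 111 with all 16 arrays (1 rose), 65 with array weights (1 rose), 0 without an intensity trend and 0 to 68 with each array left out, 0 being without 36 h, with 0 to 3 rising. The slope called 4 rising and 18 falling probes. It gave 2 rising with median scaling and 2 with no filter, 68 rising and 77 falling with all 16 arrays, 32 falling with array weights, 0 and 0 without an intensity trend, and 0 to 6 rising and 0 to 42 falling with each array left out. The late minus the preceding change called 76 probes above and 275 below. Median scaling gave 41 above, array weights 310 above and 597 below and no intensity trend 48 above, and leaving out each array gave 22 to 74 above and 143 to 294 below. The cause of these differences was not tested.

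Dim genes shrank without background correction: ORC1 to -0.47, E2F8 to -0.29, SEMA5A to 0.29 and ETV5 to -0.46, all still past the threshold. Of 64 genes named by rule, 33 stayed past the threshold under every alternative and none changed sign. The 12 largest falls were among the 33, and of the 12 largest rises CYP4Z2P, GHR, GPX2, SLC15A2 and TMEM117 were not. No paired analysis was possible because the labels give no pairing between windows and 1 array per hour. Signals near the background limited SEMA5A, ORC1, E2F8, CENPE and PIF1, and ERBB2 and KRT19 lay at the upper end of the scale.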
